A study of Mus musculus with 27 samples.

Results

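Fibroblasts labelled KO-NTD were compared with fibroblasts labelled KO in experiment 1 of a series on Foxm1, with 3 libraries in each group and 6 of the 27 libraries of the series. The libraries were chosen by their labels alone, and every gene that passed a filter on low counts was tested. Bulk RNA was sequenced from mouse embryonic fibroblasts, which are primary connective tissue cells grown out of embryos, here of strain C57BL/6. The cells were of early passage, growing asynchronously, and were taken at about 90% confluence. Both groups carry the genotype label KO, and KO-NTD has the addition NTD, which the labels do not explain. The labels do not say how KO or NTD was made, from which promoter or vector anything was expressed, or whether a library came from its own embryo, clone or pool. The 3 WT fibroblast libraries of experiment 1 were fitted together with the 6, and experiment 2 gave 2 further comparisons of cells with and without NTD, Het-NTD against Het and WT-NTD against WT. P-values therefore measure the spread between libraries, which may be technical.

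FoxM1 is a forkhead transcription factor of dividing cells. With B-Myb and the MuvB complex it acts on promoters of genes used in G2 and mitosis, such as those for cyclin B, centromere proteins and spindle motors. The series title also names Ect2, an exchange factor that activates RhoA at the cleavage furrow, RhoA itself and the formin mDia1, encoded by Diap1, which lengthens actin filaments.

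Total counts were 47380829 to 69517834 per library in experiment 1. The fibroblast collagen gene Col1a1 stood at 15059 to 17848 CPM (counts normalised to library sizes scaled by TMM) in KO-NTD and at 13270 to 16985 CPM in KO, while erythroid genes summed to 0.498 to 0.921 CPM in KO-NTD and to 0.589 to 0.739 CPM in KO. Of 13 fibroblast genes tested, 5 were above 0 and 8 below 0 in log2 fold change of KO-NTD minus KO, with a median of -0.19. At an unadjusted p below 0.05, 2 of them were higher and 1 lower (23.1%, against 6.68% of all genes). The libraries labelled KO did not hold less Foxm1 than WT, as described below, so the count does not show what the label KO refers to. The library KO 1 stood apart from the others of its group. Its log2 CPM over 14551 genes had a Pearson correlation of 0.959 with KO 2 and 0.961 with KO 3, while KO 2 and KO 3 gave 0.991 with each other and KO 1 gave 0.990 with KO-NTD 2. KO-NTD 3 was also nearer to the other group, at 0.989 with KO 2 and with KO 3 against 0.983 with KO-NTD 1 and 0.971 with KO-NTD 2. The 17 macrophage genes tested summed to 40.1, 11.4 and 321 CPM in the KO-NTD libraries, to 13.9, 441 and 306 CPM in the KO libraries and to 112, 65.6 and 85.8 CPM in WT. KO-NTD 2 and KO 1 were thus low and KO-NTD 3, KO 2 and KO 3 high in macrophage genes, and Csf1r, the receptor that defines the lineage, was above 0 in each library. The same pair was highest in skeletal muscle genes. These summed to 65.8, 104 and 48.0 CPM in the KO-NTD libraries, 103, 39.5 and 37.7 CPM in the KO libraries and 78.3, 51.8 and 57.6 CPM in WT. Acta1, skeletal muscle actin, and Des, desmin, made up most of each sum. Acta1 was 22.3, 53.3 and 13.9 CPM in KO-NTD and 62.7, 9.41 and 9.78 CPM in KO. Des did not follow this order, at 32.4, 20.1 and 26.4 CPM in KO-NTD and 16.3, 21.6 and 20.2 CPM in KO. By Xist and Y-linked genes, KO-NTD and KO each held 1 female and 2 male libraries, and the female ones were KO-NTD 2 and KO 2.

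One gene passed the test. Of 14551 genes tested with edgeR's quasi-likelihood test, 1 was called at an adjusted p below 0.05, which is 0.00687% of the genes, and that gene was Foxm1, which rose. No gene was called lower. At an unadjusted p below 0.05 there were 972 genes (6.68%), 400 higher (2.75%) and 572 lower (3.93%) in KO-NTD. DESeq2 called 27 genes (0.189% of the 14258 with an adjusted p), 9 higher and 18 lower. Foxm1 was 364, 390 and 333 CPM in the KO-NTD libraries, against 139, 149 and 152 CPM in KO and 134, 140 and 136 CPM in WT. Each KO-NTD library was above each library of the other groups, and KO and WT lay close together. The mean was 362 ± 28.2 CPM in KO-NTD and 146 ± 6.64 CPM in KO (SD, n = 3 each), a ratio of 2.47 with a 95% interval of 2.24 to 2.73, or a log2 fold change of 1.31 (edgeR adjusted p = 1.8e-04). KO against WT gave a log2 fold change of 0.10 for Foxm1 (edgeR adjusted p = 0.565).

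The Foxm1 gene lies on the plus strand of chromosome 6 from 128362967 to 128376146 (GRCm38, GENCODE M21), with 8 transcripts of up to 8 exons. The counts are per gene and carry no exon detail. Reads that come from NTD, if it holds Foxm1 sequence, and reads of the resident gene would be counted together, so these sources cannot be told apart. The last exon overlaps Tex52 on the same strand, a gene that the table lists under an older symbol with 18, 4 and 2 counts in KO-NTD and 4, 1 and 11 counts in KO, against 21096, 18194 and 18718 counts for Foxm1 in KO-NTD and 6854, 10459 and 8496 counts in KO.

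The same count was high in NTD cells of the other backgrounds. In experiment 2, Foxm1 was 351, 310 and 379 CPM in Het-NTD against 126, 131 and 130 CPM in Het, and 406, 293 and 339 CPM in WT-NTD against 145, 147 and 149 CPM in WT. The log2 fold changes were 1.42 in Het-NTD (95% interval 1.20 to 1.65, edgeR adjusted p = 3.4e-04) and 1.24 in WT-NTD (1.01 to 1.46, edgeR adjusted p = 0.00137). In a joint fit of the 21 fibroblast libraries the effect in KO cells differed from that in Het cells by -0.10 on the log2 scale (95% interval -0.37 to 0.17) and from that in WT cells by 0.09 (-0.18 to 0.36), with edgeR adjusted p of 0.852 and 0.9999. The KO background was measured in experiment 1 and the others in experiment 2, so background and experiment cannot be told apart.

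**Figure D1:**
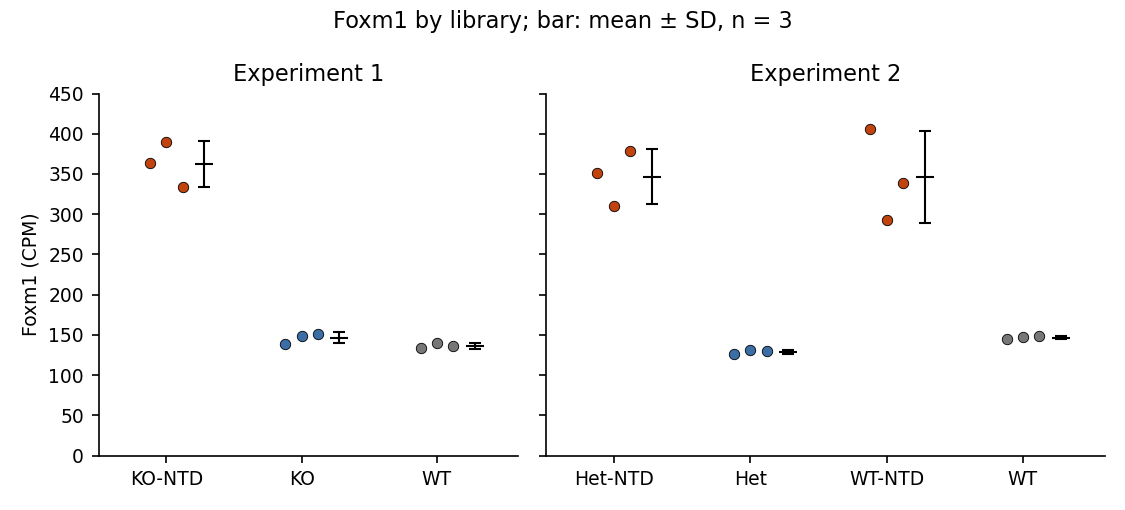
Foxm1 in CPM (vertical axis, from 0) in each fibroblast library, by group on the horizontal axis; points are libraries and the black bar is the mean with SD of 3. The KO-NTD libraries sit between 333 and 390 CPM, above the KO libraries at 139 to 152 CPM, and the NTD groups of experiment 2, scaled in a fit of their own, sit above theirs in the same way.

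Genes that FoxM1 is known to act on were not called in KO-NTD. None of the 42 genes in a list of G2/M genes was called by edgeR or by DESeq2, and 1 of 42 (2.38%) had an unadjusted p below 0.05, against 6.68% of all genes tested. The median log2 fold change of the list was 0.03, beside -0.01 over all genes. The precision was enough to bound most of them: for 40 of the 42, the 95% interval of the ratio lay within 1.5-fold either way, and for 41 within 2-fold. The exception beyond 2-fold was Pttg1, which encodes securin, the inhibitor of separase, at a log2 fold change of -0.45 (-1.98 to 1.08). Over all genes, 63.8% had an interval within 1.5-fold and 77.5% within 2-fold. The summed level of the 42 genes was 4366, 4291 and 4542 CPM in KO-NTD, 4178, 4439 and 4248 CPM in KO and 4590, 5124 and 4867 CPM in WT.

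The member of lowest p was Plk1, the kinase of mitotic entry and spindle assembly, at 121, 118 and 120 CPM in KO-NTD against 110, 104 and 110 CPM in KO. These do not overlap, but the log2 fold change of 0.15 (95% interval 0.05 to 0.25) had an edgeR adjusted p of 0.714. Kif20a, the kinesin of the spindle midzone, was 123, 117 and 121 CPM in KO-NTD against 121, 105 and 106 CPM in KO. Bub1, a kinase of the spindle checkpoint, was 92.7, 88.2 and 88.9 CPM in KO-NTD against 84.7, 84.7 and 80.8 CPM in KO, and Ube2c, the ubiquitin-conjugating enzyme of the anaphase-promoting complex, 83.3, 80.8 and 87.9 CPM in KO-NTD against 79.0, 81.9 and 77.6 CPM in KO. All 3 gave an edgeR adjusted p of 0.714 and log2 fold changes of 0.08 to 0.12.

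Several mitotic genes stood below WT in the libraries labelled KO, and those levels were similar in KO-NTD. They were picked after their values were seen, for being called lower in KO than in WT, a comparison that called 65 genes (0.447%), 18 higher and 47 lower. That comparison shares the KO libraries with the one of KO-NTD against KO, so the values are given side by side and are not independent. KO-NTD against WT called 64 genes (0.44%), 9 higher and 55 lower. Nek2, a kinase that separates centrosomes, was 21.4, 18.95 and 20.7 CPM in KO-NTD, 19.9, 20.8 and 17.3 CPM in KO and 49.0, 54.6 and 49.9 CPM in WT. The KO-NTD values overlapped those of KO and lay far below each WT value. The log2 fold change was 0.08 (95% interval -0.11 to 0.26) for KO-NTD minus KO, -1.33 for KO-NTD minus WT (edgeR adjusted p = 3.9e-04) and -1.41 for KO minus WT (edgeR adjusted p = 4.4e-04).

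Cenpf, a kinetochore protein, was 43.2, 44.5 and 46.4 CPM in KO-NTD, 39.1, 45.9 and 40.7 CPM in KO and 92.4, 123 and 119 CPM in WT. Cenpa, the histone H3 variant of centromeres, was 33.7, 31.5 and 32.5 CPM in KO-NTD, 29.9, 34.7 and 32.6 CPM in KO and 62.9, 65.9 and 64.7 CPM in WT. Ccnb1, cyclin B1, was 87.6, 89.3 and 88.9 CPM in KO-NTD, 90.3, 89.9 and 90.7 CPM in KO and 143, 163 and 145 CPM in WT. In all 3 genes the KO-NTD and KO libraries lay near each other and below each WT library. For Ccnb1 the 95% interval of the log2 fold change between KO-NTD and KO was -0.15 to 0.09 and for Cenpa -0.13 to 0.14.

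Aspm, which organises spindle poles, was 35.0, 32.6 and 35.1 CPM in KO-NTD, 29.5, 41.3 and 34.7 CPM in KO and 62.5, 80.8 and 85.1 CPM in WT. Dlgap5, a protein of kinetochore fibres, was 35.8, 37.8 and 37.7 CPM in KO-NTD, 38.2, 39.1 and 37.0 CPM in KO and 60.9, 63.9 and 67.4 CPM in WT. Ccnf, Cep55, Kif23, Kif2c, Ccna2, Ccnb2 and Cdc20 were also called lower in KO than in WT, with log2 fold changes of -0.30 to -0.91, and their log2 fold changes for KO-NTD minus KO were -0.04 to 0.13, with edgeR adjusted p of 0.716 to 0.946. Cdc25b, the phosphatase that activates the mitotic cyclin-dependent kinase, depended on KO 1. It was 17.8, 17.0 and 19.4 CPM in KO-NTD, 15.1, 25.5 and 24.5 CPM in KO and 49.9, 47.0 and 47.3 CPM in WT. Its log2 fold change for KO-NTD minus KO was -0.27 (edgeR adjusted p = 0.724), and -0.47 without KO 1 (edgeR adjusted p = 0.0463), so that it was then called lower in KO-NTD.

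**Figure D2:**
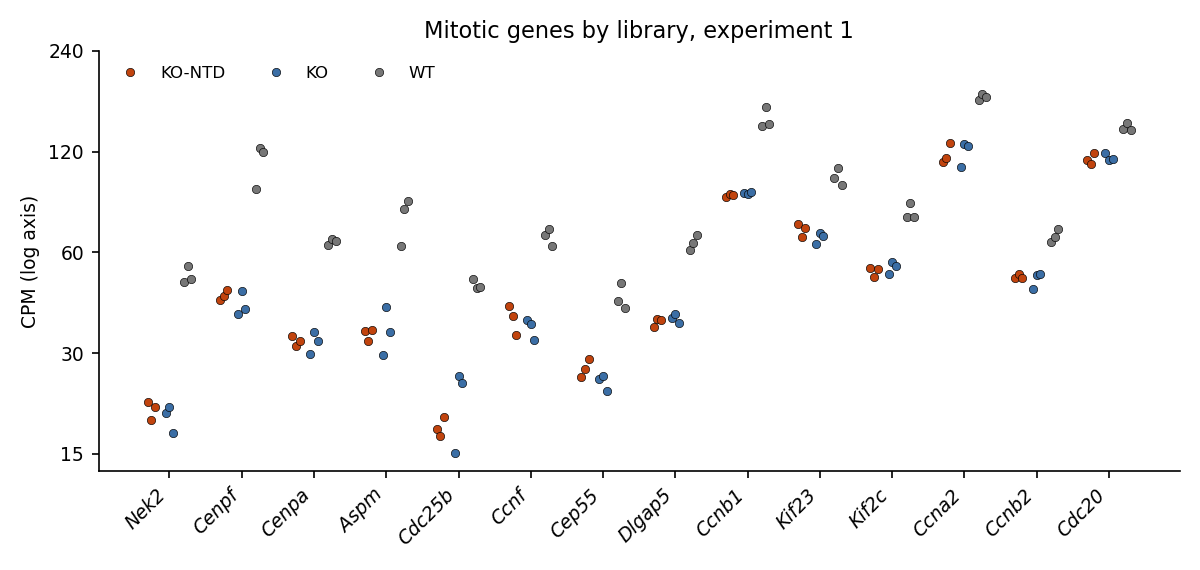
CPM (vertical log axis) of 14 mitotic genes (horizontal axis) that were called lower in KO than in WT; each point is a library. The KO-NTD and KO points lie together, and the WT points above them, as for Nek2 at 18.95 to 21.4 CPM in KO-NTD, 17.3 to 20.8 CPM in KO and 49.0 to 54.6 CPM in WT.

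The 250 bases before the RefSeq start sites of Nek2, Ccnb1 and Cenpa are shown. They were chosen because these genes carry the contrast between the Foxm1 count and its known targets. In GENCODE M21 the genes start inside these windows, at 191821444 for Nek2, 100786570 for Ccnb1 and 30666777 for Cenpa. The sequences are from RefSeq on GRCm38.p6, 5′ to 3′ on the strand of the gene, with capitals for the CCAAT box on either strand, an element bound by NF-Y.
Nek2, chr1:191821223-191821472, plus strand: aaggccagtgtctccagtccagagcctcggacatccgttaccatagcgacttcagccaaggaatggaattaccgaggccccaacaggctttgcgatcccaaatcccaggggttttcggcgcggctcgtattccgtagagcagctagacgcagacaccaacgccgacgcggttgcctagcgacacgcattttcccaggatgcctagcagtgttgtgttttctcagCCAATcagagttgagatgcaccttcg
Ccnb1, chr13:100786487-100786736, minus strand: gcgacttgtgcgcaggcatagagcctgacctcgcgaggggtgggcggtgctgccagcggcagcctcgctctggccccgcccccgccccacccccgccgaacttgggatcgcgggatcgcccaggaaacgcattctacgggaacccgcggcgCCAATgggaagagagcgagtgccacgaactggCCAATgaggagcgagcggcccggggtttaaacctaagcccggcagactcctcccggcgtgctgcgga
Cenpa, chr5:30666636-30666885, plus strand: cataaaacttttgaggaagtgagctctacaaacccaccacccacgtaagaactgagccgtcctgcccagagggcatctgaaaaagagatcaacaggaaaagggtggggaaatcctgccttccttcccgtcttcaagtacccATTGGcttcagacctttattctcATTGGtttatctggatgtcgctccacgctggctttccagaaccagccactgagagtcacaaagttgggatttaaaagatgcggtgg
The cell cycle homology region through which MuvB binds was searched as TTTGAA or TTCGAA on both strands, and neither run of letters is in these 3 windows. Other forms of the element were not searched, so its absence is not shown. Promoter windows were found for 35 of the 42 G2/M genes. CCAAT was in 29 of their 37 windows (78.4%) and in 33.8% of all 32851 windows, and TTTGAA or TTCGAA was in 12 of 37 (32.4%) and in 17.1% of all. Promoters of G1/S genes were similar in CCAAT, which 25 of 36 windows held (69.4%), while 8 of 36 (22.2%) held TTTGAA or TTCGAA. No promoter of Foxm1 was used here.

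Genes of G1 and S phase, which E2F drives, showed no call either. Of 39 in the list, all were tested, the median log2 fold change was 0.00 and 37 had an interval within 1.5-fold. Only 1 had an unadjusted p below 0.05 (2.56%, against 6.68% of all genes). The one was Mybl2, which encodes B-Myb, at 54.4, 51.8 and 50.6 CPM in KO-NTD against 49.5, 45.1 and 44.5 CPM in KO, where the groups do not overlap (log2 fold change 0.17, edgeR adjusted p = 0.714). Ccne2, cyclin E2, was 17.7, 18.3 and 17.2 CPM in KO-NTD against 16.4, 17.1 and 15.9 CPM in KO, with a log2 fold change of 0.11.

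The genes of the title lay close together in KO-NTD and KO. Ect2 was 88.2, 89.1 and 108 CPM in KO-NTD against 85.0, 101 and 104 CPM in KO, and Rhoa 531, 525 and 538 CPM in KO-NTD against 524, 519 and 514 CPM in KO. Diap1 was 73.4, 69.4 and 68.8 CPM in KO-NTD against 78.6, 67.2 and 63.8 CPM in KO. Ect2 and Diap1 overlap between groups, and Rhoa does not. The log2 fold changes were -0.02 (95% interval -0.26 to 0.22) for Ect2, 0.03 (-0.05 to 0.12) for Rhoa and 0.01 (-0.17 to 0.20) for Diap1, with edgeR adjusted p of 0.957, 0.816 and 0.969. Exons of Rhoa overlap those of the antisense gene Tcta, and reads of an unstranded kit cannot separate them. The same limit holds for other genes named here that overlap a gene on the other strand, among them Kif20a, Ube2c, Cdc25b, Ccna2, Cdc20 and Ccne2. In the list of 37 genes of Ect2, RhoA and cytokinesis none was called. An unadjusted p below 0.05 was found for 3 (8.11%, against 6.68% of all genes). They were Myl12b, a myosin light chain, at 24.3, 23.3 and 27.7 CPM in KO-NTD against 26.7, 34.5 and 38.0 CPM in KO, Limk1, the kinase of cofilin, at 35.4, 32.9 and 34.4 CPM in KO-NTD against 35.9, 40.8 and 40.5 CPM in KO, and Myh9, the heavy chain of non-muscle myosin, at 3338, 2911 and 2743 CPM in KO-NTD against 2748, 2480 and 2489 CPM in KO. Myl12b shares exon positions with the near copy Myl12a, so its count is uncertain.

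Genes of the actin cytoskeleton that SRF and MRTF drive had 7 of 35 members higher at an unadjusted p below 0.05 and none lower, where 2.75% of all genes were higher by that measure, with a median of 0.11 and no call. Acta2, smooth muscle actin, was 3758, 3860 and 3669 CPM in KO-NTD against 3620, 3363 and 3350 CPM in KO, with no overlap (log2 fold change 0.13, edgeR adjusted p = 0.714). Fhl1, a LIM protein of muscle, was 235, 209 and 234 CPM in KO-NTD against 197, 185 and 186 CPM in KO and 304, 313 and 259 CPM in WT. Actg2, enteric smooth muscle actin, was 189, 234 and 171 CPM in KO-NTD against 177, 150 and 135 CPM in KO and 322, 316 and 254 CPM in WT. For these 3 genes KO-NTD was mostly above KO, and for Fhl1 and Actg2 both lay below WT. Without KO 1, the list's median was 0.18, and in experiment 2 it was -0.03 in Het-NTD and 0.03 in WT-NTD.

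Below Foxm1, the genes of lowest p were Ackr3 and Arnt2. Ackr3, an atypical receptor that takes up the chemokine Cxcl12, was 7.12, 9.32 and 8.83 CPM in KO-NTD against 17.1, 15.9 and 18.1 CPM in KO and 21.2, 23.4 and 20.4 CPM in WT. Each KO-NTD library was below each KO library. The log2 fold change was -1.02 (95% interval -1.27 to -0.76, edgeR adjusted p = 0.0715), and DESeq2 called it (adjusted p = 3.7e-12). edgeR called it with no filter on low counts (adjusted p = 0.0336), with a macrophage score as a covariate (0.0454), without KO 1 (0.0355) and without both KO 1 and KO-NTD 2 (0.0391). It did not call it under the other settings tried, which scaled by RLE, added a replicate block or sex, fitted 6 libraries alone or left out another library (adjusted p = 0.0676 to 0.575). Arnt2, a partner of PAS transcription factors, was 14.7, 15.8 and 14.9 CPM in KO-NTD against 21.5, 21.7 and 21.6 CPM in KO and 23.4, 20.9 and 21.4 CPM in WT. Its log2 fold change was -0.51 (-0.65 to -0.37, edgeR adjusted p = 0.120, DESeq2 adjusted p = 8.7e-08), and edgeR called it without KO 1 (adjusted p = 0.0449) and under no other setting tried (up to 0.914). Both genes thus had tight groups that did not overlap, and both were called lower in KO-NTD than in WT, with edgeR adjusted p of 0.00154 for Ackr3 and 0.00835 for Arnt2.

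In experiment 2 neither gene passed, with edgeR adjusted p of 0.742 to 0.981. Ackr3 was 10.2, 10.4 and 9.99 CPM in Het-NTD against 13.0, 11.96 and 8.43 CPM in Het, and 5.74, 16.8 and 12.3 CPM in WT-NTD against 8.97, 30.04 and 17.8 CPM in WT. Arnt2 was 14.4, 13.9 and 16.7 CPM in Het-NTD against 15.8, 14.7 and 10.2 CPM in Het, and 14.5, 20.2 and 17.5 CPM in WT-NTD against 16.0, 26.9 and 17.2 CPM in WT. Groups overlapped in both. The test of the difference between the KO and the Het effect gave -0.87 (95% interval -1.92 to 0.17) for Ackr3 and -0.64 (-1.15 to -0.12) for Arnt2 on the log2 scale, each with an edgeR adjusted p of 0.737, so a difference between backgrounds did not pass for either.

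**Figure D3:**
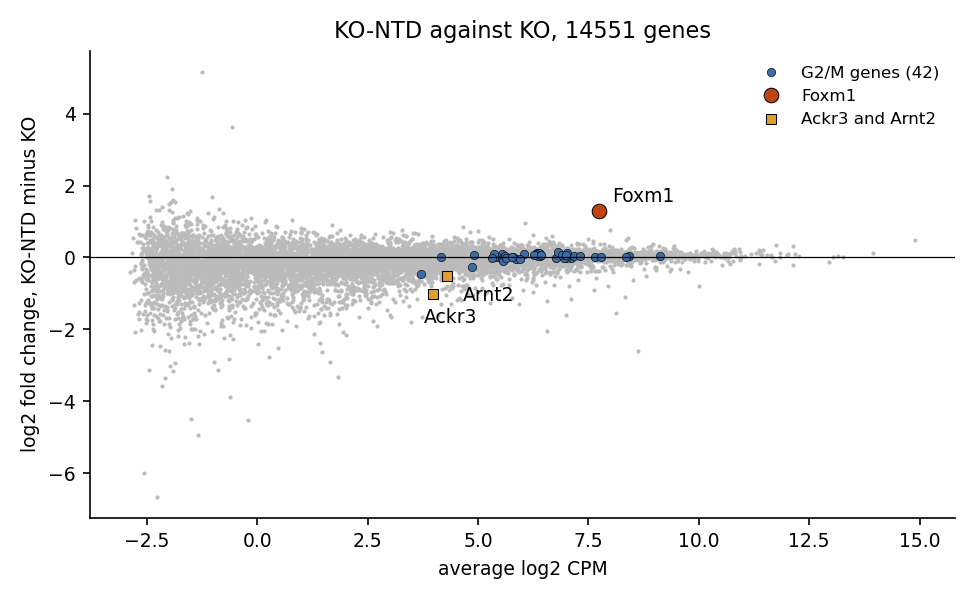
Log2 fold change of KO-NTD minus KO (vertical axis) against average log2 CPM (horizontal axis) for the 14551 genes tested; grey points are genes, blue points the 42 G2/M genes and the large point Foxm1. Foxm1 stands at 1.31, Ackr3 at -1.02 and Arnt2 at -0.51, while the G2/M genes lie along 0 with a median of 0.03.

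Genes that DESeq2 called and edgeR did not were named after their values were seen. Of the 27, 26 had CPM that did not overlap between KO-NTD and KO, a condition met by 11.2% of all genes (5.74% higher and 5.42% lower). The calls were made on these same libraries, so the lack of overlap gives them no separate support. Efemp1, a matrix protein of the fibulin family, was 61.0, 59.6 and 50.2 CPM in KO-NTD against 81.4, 98.8 and 91.4 CPM in KO (edgeR adjusted p = 0.357). Ddr1, a collagen receptor kinase, was 59.7, 55.2 and 60.2 CPM in KO-NTD against 71.4, 91.4 and 83.3 CPM in KO. Wisp1, a secreted protein that Wnt signalling induces, was 623, 554 and 506 CPM in KO-NTD against 446, 448 and 405 CPM in KO. Every KO-NTD value was below the KO values for Efemp1 and Ddr1 and above them for Wisp1. Itga11, the collagen-binding integrin alpha 11, was 176, 142 and 152 CPM in KO-NTD against 117, 126 and 126 CPM in KO. Gfra1, a receptor for GDNF, was 110, 65.7 and 73.8 CPM in KO-NTD against 42.5, 42.1 and 43.5 CPM in KO. Tln2, talin 2, was 228, 210 and 205 CPM in KO-NTD against 179, 179 and 186 CPM in KO. For the last 3 the KO-NTD libraries were all higher, and all but Efemp1 of these 6 had an edgeR adjusted p of 0.714.

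The library KO 1 decided how many genes were called. Without it, edgeR called 29 genes (0.196% of 14792), 8 higher and 21 lower, against 1 with it, and 9 of the 29 (31.0%) were among the 27 of DESeq2 (33.3%). Leaving out any other single library of experiment 1 gave 1 call, Foxm1. Only 11 of the 29 genes had CPM that did not overlap between KO-NTD and KO when KO 1 was counted. The 4 genes given next were named after their values were seen. Scara5, a ferritin receptor, was 0.552, 0.664 and 1.05 CPM in KO-NTD against 0.466, 6.61 and 6.96 CPM in KO. Tmtc1, a protein of the endoplasmic reticulum, was 2.19, 2.10 and 2.40 CPM in KO-NTD against 1.54, 8.19 and 15.4 CPM in KO. Kcnmb1, the smooth muscle subunit of a potassium channel, was 3.81, 4.13 and 2.15 CPM in KO-NTD against 5.27, 0.697 and 0.678 CPM in KO. In these 3 genes KO 1 lay beyond the KO-NTD libraries and away from KO 2 and KO 3. Sorbs2, an adaptor of actin fibres, was 4.72, 4.71 and 5.66 CPM in KO-NTD against 8.56, 16.2 and 23.2 CPM in KO, with KO 1 nearest to KO-NTD. Its log2 fold change was -1.67 (edgeR adjusted p = 0.714), and -1.96 without KO 1 (edgeR adjusted p = 0.00442). KO 1 and KO-NTD 2 were the pair low in macrophage genes and high in the sum of skeletal muscle genes. With both left out, edgeR called 13 genes, 1 higher and 12 lower. Foxm1, Ackr3, Col9a3, Sorbs2, Scara5, Scara3, Ddr1, Foxp2 and AW551984 were called under both of these settings. Over all settings tried, the edgeR adjusted p of Scara5, Sorbs2, Col9a3, Foxp2 and Cdc25b reached 0.997.

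**Figure D4:**
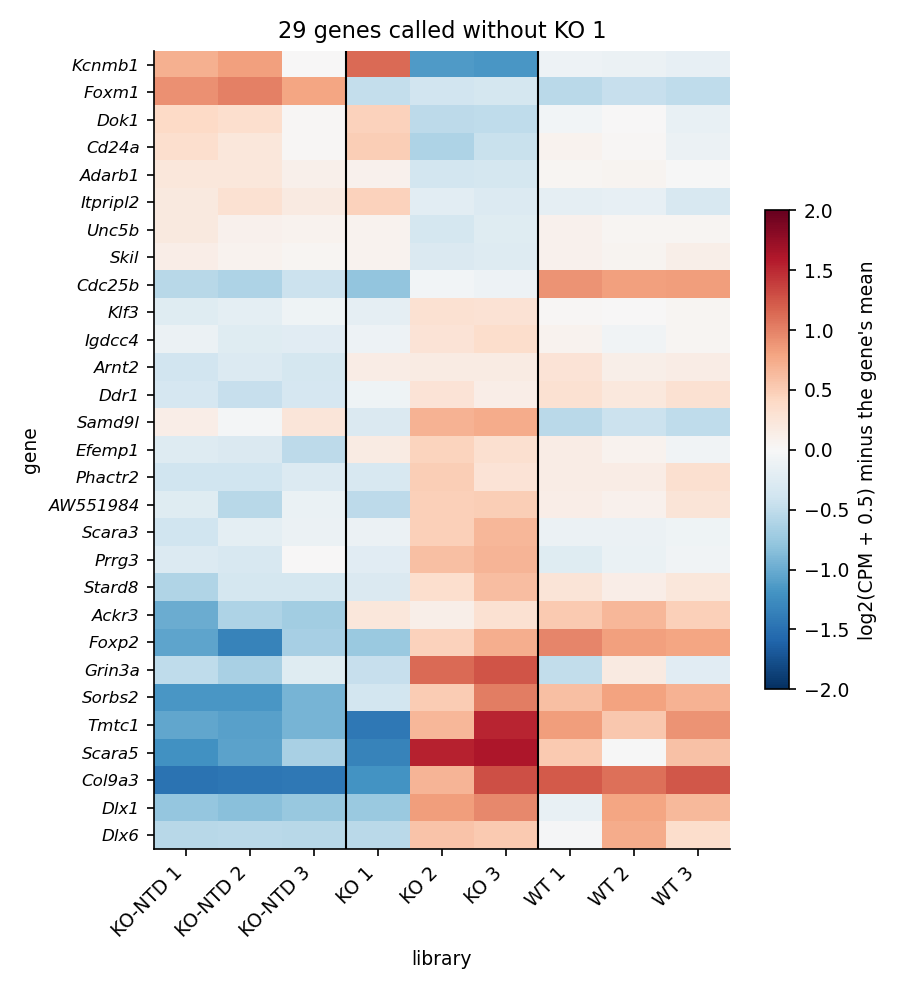
The 29 genes (rows) called by edgeR when KO 1 was left out, in the 9 libraries of experiment 1 (columns); colour is log2(CPM + 0.5) minus the mean of the gene over the libraries. In most rows KO 1 has the colour of the KO-NTD libraries and not of KO 2 and KO 3, as for Scara5 at 0.466 CPM in KO 1 and 6.61 CPM in KO 2, while Foxm1 and Ackr3 keep KO 1 with its group.

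The cartilage collagens Col2a1 and Col9a3 had their lowest levels in KO-NTD, with KO 1 nearest to it among the KO libraries. Col2a1, the main cartilage collagen, was 25.9, 75.4 and 30.8 CPM in KO-NTD, 89.0, 260 and 453 CPM in KO and 995, 883 and 725 CPM in WT. Col9a3, a chain of cartilage collagen IX, was 0.431, 0.450 and 0.463 CPM in KO-NTD, 0.629, 3.65 and 5.84 CPM in KO and 5.54, 5.06 and 5.63 CPM in WT. Neither gene overlaps between KO-NTD and KO. The other chains of collagen IX, chosen after their values were seen, were lowest in KO 1. Col9a1 was 0.379, 0.128 and 0.267 CPM in KO-NTD against 0.0406, 0.853 and 2.32 CPM in KO, and Col9a2 was 0.569, 0.493 and 1.14 CPM in KO-NTD against 0.304, 1.56 and 2.41 CPM in KO. For Col2a1 and Col9a3, edgeR did not call them (adjusted p = 0.714 each), DESeq2 did (0.0287 for Col2a1 and 0.00246 for Col9a3), and edgeR called Col9a3 without KO 1 (log2 fold change -3.40, adjusted p = 0.00147). Without both KO 1 and KO-NTD 2, edgeR called Col2a1 (log2 fold change -3.65, adjusted p = 0.0364) and Col9a3 (-3.40, adjusted p = 0.0124). Sox9, the regulator of cartilage fate, was 37.6, 36.6 and 35.0 CPM in KO-NTD, 40.2, 42.7 and 45.6 CPM in KO and 31.8, 32.3 and 35.4 CPM in WT. The cartilage list had 3 of 13 tested members lower at an unadjusted p below 0.05 (23.1%, against 3.93% of all genes). Its median was -0.80, and in experiment 2 it was 0.12 in Het-NTD and -0.46 in WT-NTD. In bulk RNA, fewer cells of a type and less RNA per cell cannot be told apart.

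Among 63 tested patterning factors outside the Hox clusters, 17 were lower and 1 higher at an unadjusted p below 0.05 (28.6%). The median of these factors was -0.27, with no edgeR call, and 6.68% of all genes had such a p. Zic2, a zinc finger factor of neural and axial patterning, was 1.29, 1.48 and 1.23 CPM in KO-NTD, 2.43, 3.28 and 4.25 CPM in KO and 9.40, 7.49 and 5.94 CPM in WT, so the groups do not overlap. Msx2, a homeobox gene that BMP induces, was 2.64, 1.73 and 1.80 CPM in KO-NTD, 3.29, 3.67 and 4.70 CPM in KO and 9.30, 10.4 and 7.57 CPM in WT. Both were called lower in KO-NTD than in WT (edgeR adjusted p = 0.00393 for Zic2 and 0.00487 for Msx2). Foxp2, a forkhead factor, was 4.15, 3.32 and 5.61 CPM in KO-NTD against 5.25, 12.8 and 15.5 CPM in KO, and was called lower in KO-NTD without KO 1 (log2 fold change -1.69, edgeR adjusted p = 0.0291). Dlx1, a homeobox gene of limb and face, was 0.0690, 0.0428 and 0.0712 CPM in KO-NTD against 0.0811, 1.24 and 1.39 CPM in KO. These are 4, 2 and 4 reads in KO-NTD against 4, 87 and 78 reads in KO. DESeq2 called Dlx1 lower (adjusted p = 0.0387), and so did edgeR without KO 1 (log2 fold change -4.40, adjusted p = 0.0384). The list's median was 0.01 in Het-NTD and -0.37 in WT-NTD of experiment 2.

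The Hox genes did not move one way. Of 37 tested, 5 were higher and 3 lower at an unadjusted p below 0.05 (21.6%, against 6.68% of all genes). The median was 0.21, and 0.45 without KO 1. In experiment 2 the Hox median was 0.06 in Het-NTD and 0.15 in WT-NTD. Hoxa9 was 10.9, 11.6 and 11.2 CPM in KO-NTD against 9.15, 6.81 and 8.16 CPM in KO. Hoxc9 was 7.14, 5.95 and 6.04 CPM in KO-NTD against 5.03, 4.31 and 3.52 CPM in KO. Hoxa2, which patterns the hindbrain and second arch, was 1.28, 1.05 and 0.819 CPM in KO-NTD against 2.56, 2.35 and 2.23 CPM in KO. The first pair was higher and Hoxa2 lower in each KO-NTD library, and DESeq2 called Hoxa2 (adjusted p = 0.00399), which edgeR did not (0.714).

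BMP signalling genes had 9 of 29 members lower at an unadjusted p below 0.05 (31.0%, against 3.93% of all genes) and none higher. Their median was -0.39. Id3, an inhibitor of helix-loop-helix factors that BMP induces, was 124, 106 and 141 CPM in KO-NTD against 153, 139 and 182 CPM in KO. Id4 was 8.62, 8.80 and 15.2 CPM in KO-NTD against 14.99, 18.98 and 22.5 CPM in KO. Gdf10, a BMP family ligand, was 0.638, 0.707 and 2.28 CPM in KO-NTD against 1.24, 5.62 and 9.23 CPM in KO. The groups of these 3 genes overlap, and each had an edgeR adjusted p of 0.714. The list's median was -0.58 without KO 1, and 0.02 in Het-NTD and -0.31 in WT-NTD of experiment 2.

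Detoxification genes, which NRF2 and related factors drive, had 8 of 18 tested members lower at an unadjusted p below 0.05 (44.4%) and none higher. Over all genes 3.93% were lower by that measure. The list had a median of -0.28 and no call. In experiment 2 its median was -0.04 in Het-NTD and -0.02 in WT-NTD. Nqo1, a quinone reductase, was 12.6, 17.3 and 24.9 CPM in KO-NTD against 25.2, 43.4 and 43.7 CPM in KO. Gstm1, a glutathione transferase, was 24.7, 23.3 and 23.2 CPM in KO-NTD against 26.4, 33.5 and 33.9 CPM in KO. Cyp1b1, a cytochrome P450, was 198, 275 and 362 CPM in KO-NTD against 365, 441 and 477 CPM in KO. No group overlapped for these 3, and KO 1 was the lowest KO library in each. Their log2 fold changes were -1.04, -0.40 and -0.62, each with an edgeR adjusted p of 0.714.

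Among the KO-NTD and KO libraries, interferon-stimulated genes and macrophage genes were lowest in the same pair and highest in the same 3. Of 44 interferon-stimulated genes tested, 6 were lower at an unadjusted p below 0.05 (13.6%, against 3.93% of all genes) and none was called. In 43 the log2 fold change was below 0, and the median was -0.69. The median was -1.05 without KO 1, and 0.18 in Het-NTD and 0.10 in WT-NTD of experiment 2. Their mean log2 CPM was 1.62, 0.98 and 2.26 in KO-NTD and 0.95, 2.79 and 2.80 in KO, beside a mean log2 CPM of the macrophage genes of 0.41, -1.60 and 3.09 in KO-NTD and -1.23, 3.72 and 3.21 in KO. Both were lowest in KO-NTD 2 and KO 1 and highest in KO-NTD 3, KO 2 and KO 3. The order did not hold between KO-NTD 1 and the WT libraries, in which the macrophage mean was higher, at 2.05, 1.13 and 1.51, and the interferon mean lower, at 1.38, 1.04 and 1.37. The part of macrophages in the result was not tested. Gbp2, a GTPase that interferon induces, was 5.67, 6.04 and 6.75 CPM in KO-NTD against 7.18, 10.5 and 12.2 CPM in KO, and Ifi204, a DNA sensor, 11.9, 11.2 and 14.1 CPM in KO-NTD against 13.97, 18.9 and 14.4 CPM in KO and 5.60, 5.89 and 6.24 CPM in WT. Over all settings tried, the macrophage score among them, the log2 fold change was -0.88 to -0.53 for Gbp2 and -0.44 to -0.19 for Ifi204. All 17 macrophage genes tested had a log2 fold change below 0, with a median of -1.11, and none had an unadjusted p below 0.05. The median of the macrophage genes was -1.59 without KO 1, and -1.71 in Het-NTD and -0.75 in WT-NTD of experiment 2. Csf1r was 3.91, 1.33 and 31.2 CPM in KO-NTD against 1.42, 46.2 and 41.3 CPM in KO, which overlap.

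Immediate early genes, which serum and stress induce quickly, had 4 of 22 lower at an unadjusted p below 0.05 (18.2%). Over all genes 3.93% were lower by that measure, and the median of the immediate early genes was -0.16. In experiment 2 that median was -0.15 in Het-NTD and -0.09 in WT-NTD. Klf4 was 59.2, 54.1 and 66.5 CPM in KO-NTD against 68.7, 93.7 and 88.8 CPM in KO, and Zfp36, which destabilises messenger RNA, 39.1, 45.1 and 48.4 CPM in KO-NTD against 54.1, 51.4 and 61.2 CPM in KO. Neither gene overlaps between the groups, and neither passed (edgeR adjusted p = 0.714 each). Genes of the endoplasmic reticulum stress response gave 2 of 29 higher (6.90%, against 2.75% of all genes) and a median of 0.10. They were led by Hyou1, a chaperone, at 323, 294 and 320 CPM in KO-NTD against 288, 242 and 262 CPM in KO. Lists at or below the share of all genes included ribosomal proteins (1 of 36, median 0.03), nuclear-encoded oxidative phosphorylation (1 of 35, median 0.01), cholesterol synthesis (0 of 25, median 0.03), glycolysis and hypoxia (0 of 30, median 0.12) and collagens (2 of 40, median -0.02). Without KO 1 the medians were 0.05 for cholesterol synthesis, 0.28 for glycolysis and hypoxia and -0.11 for collagens. For all 35 genes of oxidative phosphorylation the interval lay within 1.5-fold.

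**Figure D5:**
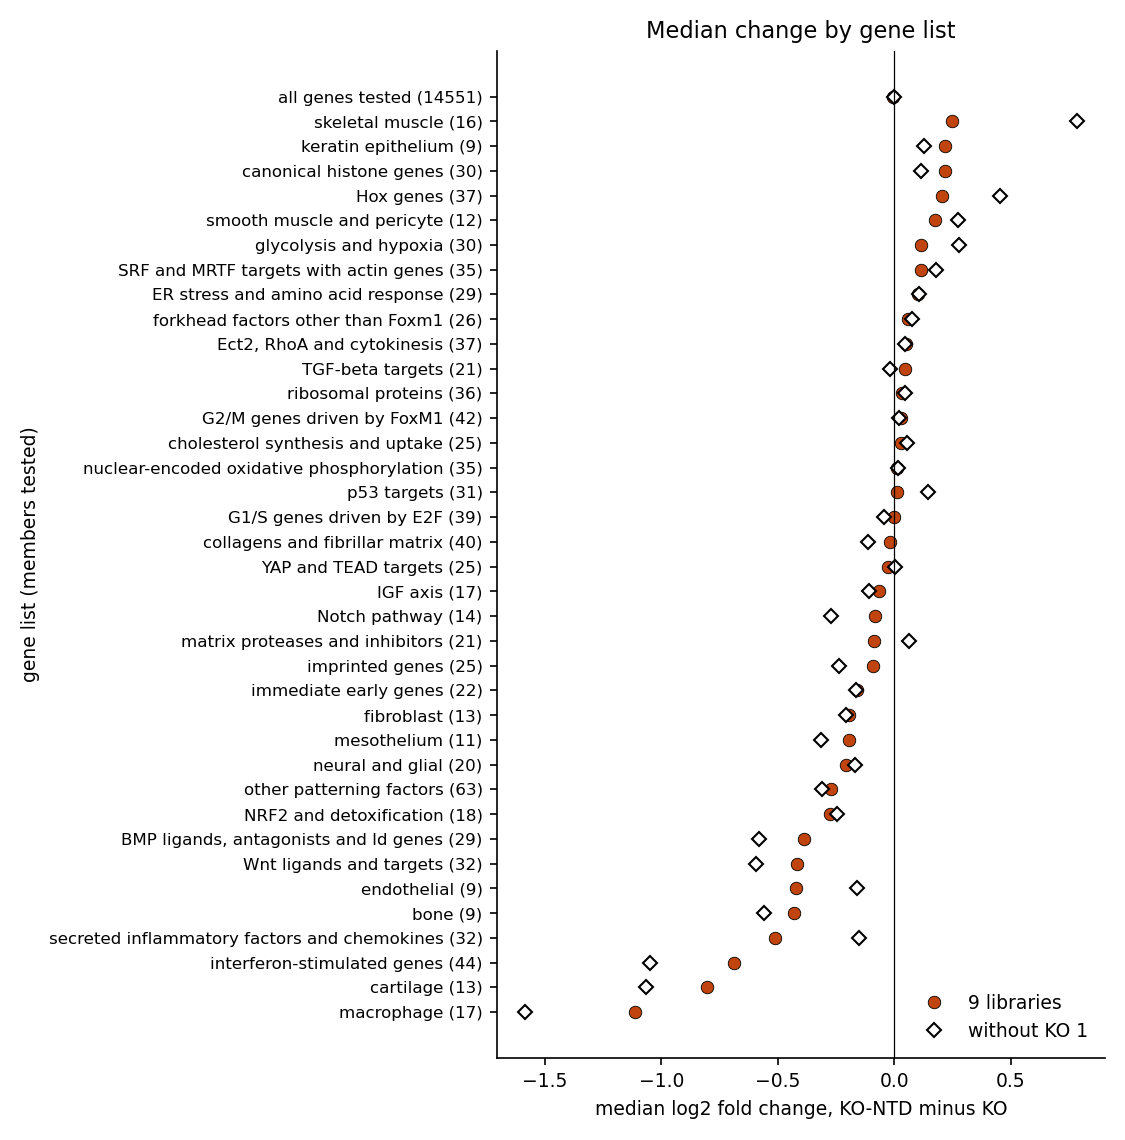
Median log2 fold change of KO-NTD minus KO (horizontal axis) for each gene list with at least 9 tested members (rows, number tested in brackets); filled circles are from 9 libraries and open diamonds from the fit without KO 1. The G2/M list sits at 0.03 and all genes at -0.01, while the macrophage list lies lowest at -1.11, and leaving out KO 1 moves several lists further from 0.

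Few genes were called in experiment 2. Het-NTD against Het gave 2 calls (0.014% of 14314), Foxm1 higher and Notch1 lower, and WT-NTD against WT gave 2 (0.014%), Foxm1 and Phyhip, both higher. DESeq2 also called Xist lower in Het-NTD than in Het (log2 fold change -9.96, adjusted p = 0.00423), so the sexes of these libraries may differ between the groups. The part of sex in this comparison, and in the KO effect minus the Het effect, was not tested. The Notch1 call (edgeR adjusted p = 0.0322) was kept without Het 1 (0.0436) and lost without any other single library of Het-NTD or Het (0.112 to 0.270). Notch1, a receptor of the Notch pathway, was 66.4, 65.4 and 66.3 CPM in Het-NTD against 78.9, 82.9 and 83.2 CPM in Het, and in experiment 1 it was 93.0, 84.5 and 98.0 CPM in KO-NTD against 67.8, 105 and 102 CPM in KO. The Het groups lie apart, and the KO-NTD and KO groups overlap (log2 fold change 0.00, edgeR adjusted p = 0.998). No gene of 14738 (0%) had an effect in KO cells that differed from that in Het cells by edgeR at an adjusted p below 0.05, with 950 at an unadjusted p below 0.05 and 0 by DESeq2. Against the effect in WT cells, 1 gene differed (0.00679%), Phyhip.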

How the data were processed

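Bulk RNA-seq of mouse embryonic fibroblasts was analysed from raw counts per gene symbol (24062 symbols, 27 libraries) that the authors deposited in 1 table. The submitters' processing notes name the build mm10 and the tools Subread, featureCounts 1.4.6, Bowtie2 2.2.6 and TopHat2 2.0.14. Libraries were made with the unstranded TruSeq RNA v2 kit, per the labels. Annotation and strand setting of the counting are not given in the sources used here. A RefSeq symbol or synonym was found for 23902 symbols.

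The 9 libraries of experiment 1 (WT included, to share the estimate of spread) were fitted with edgeR 4.0.16 in R 4.3.3: filterByExpr by group, TMM, robust quasi-likelihood F test, two-sided, Benjamini-Hochberg over 14551 genes, threshold 0.05 (common biological coefficient of variation 0.204, with 6 degrees of freedom left). Experiment 2 (12 libraries, 14314 genes) was fitted in the same way, and differences between backgrounds in a joint fit of 21 libraries (14738 genes). CPM are scaled within each fit. Alternatives were DESeq2 1.42.0, other scaling, no filter, a replicate block, 6 libraries only, a macrophage score (mean log2 CPM of the 17 genes, prior count 2) as covariate and leaving out each library; sex as covariate and the fit without KO 1 and KO-NTD 2 were chosen after seeing the data. Replicates of a group differed by more than counting noise (chi-square per degree of freedom 17.4 or more), so each library counted as 1 sample. Scripts were tested on simulated data.

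Genes were named by a rule: Foxm1, Ect2, Rhoa and Diap1; the 12 highest and lowest called genes without overlap whose average log2 CPM was 1 or more, or the 3 of lowest p where fewer than 3 passed; from each list, the 4 members of lowest p at most; and the 5 of lowest p in each test between backgrounds. Others are said to be chosen after their values were seen, as were Pttg1, Csf1r, Col1a1, Notch1 and Phyhip. The comparison and the gene lists were chosen with earlier results of these data known. With 3 libraries in a group, exact permutation gives no p under 0.1 and was not used.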

Additional observations from a re-analysis of the deposited data

Results flagged for a closer look

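Phyhip, a gene expressed mainly in brain, was marked because its NTD effect differed between the KO and the WT background. It was 0.172, 0.214 and 0.214 CPM in KO-NTD against 0.284, 0.213 and 0.214 CPM in KO, which overlap, and 3.22, 3.59 and 3.26 CPM in WT-NTD against 0.263, 0.128 and 0.199 CPM in WT, which lie far apart. The KO effect minus the WT effect was -4.32 on the log2 scale (95% interval -5.53 to -3.11, edgeR adjusted p = 0.0107). It did not pass with a replicate block (0.162), without KO-NTD 1 (0.0668), or without WT-NTD 2 (0.0550), WT 2 (0.0575) or WT 3 (0.0590) of experiment 2, with values of -4.10 to -4.33 in these fits. In Het-NTD it was 0.423, 0.255 and 0.127 CPM against 0.0710, 0.225 and 0.223 CPM in Het, so the Het groups overlap too. The level was high in 3 of 3 WT-NTD libraries. The KO and WT backgrounds were measured in different experiments, and background and experiment cannot be told apart.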

How the results depend on the processing

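In KO-NTD against KO, Foxm1 kept its direction and its call under all 17 alternatives, with log2 fold changes of 1.22 to 1.37 and adjusted p of 9.1e-73 to 0.0158. The count of genes called in KO-NTD against KO was 1 in the fit as reported and 27 with DESeq2, 2 with no filter on low counts, 2 with the macrophage score, 13 without KO 1 and KO-NTD 2, and 1 to 29 with single libraries left out (29 without KO 1). For Het-NTD against Het it was 2, and 23 with DESeq2, 1 with the replicate block, where Notch1 was lost (adjusted p = 0.134), 20 with its 6 libraries alone and 1 to 3 with single libraries left out. For WT-NTD against WT it was 2, and 21 with DESeq2, 5 with no filter, 4 with the block, 1 with its 6 libraries alone, where Foxm1 lost its call (adjusted p = 0.0739), and 2 to 119 with single libraries left out (119 without WT 1 of experiment 2). Genes whose NTD effect differed between KO and Het backgrounds numbered 0, and 0 to 1 with single libraries left out. Between KO and WT backgrounds they numbered 1, and 2 with DESeq2, 0 with the block and 0 to 2 with single libraries left out.

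Same-numbered libraries of KO-NTD and KO had correlations of their deviations from the group means of 0.17, -0.48 and 0.61. Their sexes matched by number, with KO-NTD 2 and KO 2 female and the others male by Xist and Y-linked genes. Neither the labels nor these values decide whether the numbers mark pairs in experiment 1. The fit as reported took no pairs, and with the replicate block 1 gene was called, as without it. Same-numbered libraries of experiment 2 gave -0.03, 0.11 and 0.13 for Het-NTD and Het, and 0.24, 0.45 and 0.07 for WT-NTD and WT. These values do not decide whether the numbers mark pairs in experiment 2.

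Some log2 fold changes turned sign. With the macrophage score they were 0.088 for Dlk1 and 0.26 for Cd36, against -1.09 and -1.11 as first fitted, 0.047 for Ect2, -0.025 for Diap1, 0.027 for Aspm and 0.032 for Ccna2. Without KO 1 and KO-NTD 2 they were -0.022 for Cenpa, -0.028 for Ccnb2 and 0.038 for Cdc20. With single libraries left out they ranged from -0.12 to 0.032 for Ect2, -0.048 to 0.11 for Diap1, -0.045 to 0.058 for Cenpa, -0.15 to 0.089 for Aspm, -0.085 to 0.022 for Ccna2, -0.014 to 0.050 for Ccnb2 and -0.038 to 0.014 for Cdc20. No gene that turned sign was called in the fit as reported or in these. The cause of these shifts was not tested. At 47380829 counts or more per library in experiment 1, replicates differed by more than counting error (chi-square per degree of freedom 17.4 or more).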
